A study of Mus musculus with 12 samples.

Results

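The nuclear receptor genes that set bile acid, sterol and fatty acid metabolism in liver were followed through the enhancer and promoter contact networks of young and old mouse hepatocytes. They are 7 genes, chosen by family and by their known role in hepatocyte metabolism: Nr1h4, Nr5a2, Nr0b2, Rxra, Ppara, Nr1h3 and Nr2f6. Each was found by its exact symbol in the deposited gene column, in 1 clique of the young network and 1 of the old. They are 7 of the 9595 protein-coding genes that either network lists, and of the 6257 that both list.

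The networks come from H3K27ac Hi-ChIP, in which proximity ligation and immunoprecipitation of acetylated histone H3 lysine 27 recover contacts between active promoters and enhancers. All mice were C57BL/6 males on a regular diet. The young group was 5 months old at the experiment and the old group 25 months, after purchase at 3 and 23 months and 2 months in the same vivarium. The old mice came from a national ageing colony and the young ones from a commercial breeder, so age and stock cannot be told apart. Each group has 6 libraries, labelled as 2 replicates in 3 batches, of hepatocytes pelleted from collagenase-digested liver. A single network per age was deposited, made of 5 kb bins called nodes that are grouped into sets the authors call cliques. Clique size here is the number of nodes, every node lies in 1 clique, and a gene belongs to the clique whose gene column names it.

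Nuclear receptors are transcription factors that bind lipid-like ligands and tune gene programmes to them. Nr1h4 encodes FXR, the bile acid sensor, and Nr0b2 encodes SHP, a receptor without a DNA-binding domain that FXR induces and that represses bile acid synthesis. Nr5a2 encodes LRH-1, which binds DNA as a monomer and drives bile acid synthesis genes. Ppara encodes the fatty acid sensor of the fasting response, Nr1h3 encodes LXR-alpha, the oxysterol sensor, and Rxra encodes the partner with which FXR, PPAR-alpha and LXR-alpha pair on DNA. Nr2f6 encodes an orphan receptor of the COUP-TF group.

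Sequence just upstream of the transcription start is shown for 3 of the genes. Nr5a2 is shown because its 2 starts differed between the networks, Nr0b2 because its clique was larger in old, and Nr2f6 because its old clique was the smallest relative to the young one. Each run is the 250 bases before a RefSeq start on GRCm38.p6, the assembly of mm10, read 5′ to 3′ along the gene. Capitals mark the motifs AGGTCA (the core hexamer that nuclear receptors bind) and TATAAA (the TATA box) on either strand.
Nr5a2 upstream start, chr1:136960449-136960698, minus strand: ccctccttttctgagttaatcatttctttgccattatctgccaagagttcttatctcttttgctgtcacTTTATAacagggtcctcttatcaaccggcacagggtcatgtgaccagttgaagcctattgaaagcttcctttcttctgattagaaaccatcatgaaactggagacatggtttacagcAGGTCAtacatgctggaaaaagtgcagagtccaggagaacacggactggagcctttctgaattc
Nr5a2 downstream start, chr1:136953631-136953880, minus strand: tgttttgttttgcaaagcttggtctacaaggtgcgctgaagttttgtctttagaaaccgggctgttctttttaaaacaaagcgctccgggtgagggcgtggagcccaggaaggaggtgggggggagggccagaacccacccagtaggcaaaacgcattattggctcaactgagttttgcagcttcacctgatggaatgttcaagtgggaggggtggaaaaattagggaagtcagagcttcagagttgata
Nr0b2 start, chr4:133553126-133553375, plus strand: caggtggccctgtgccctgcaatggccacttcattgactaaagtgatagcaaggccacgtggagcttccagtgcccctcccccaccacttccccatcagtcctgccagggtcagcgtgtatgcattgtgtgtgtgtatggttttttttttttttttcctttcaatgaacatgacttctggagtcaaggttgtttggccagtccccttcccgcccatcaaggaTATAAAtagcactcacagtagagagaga
Nr2f6 start, chr8:71381953-71382202, minus strand: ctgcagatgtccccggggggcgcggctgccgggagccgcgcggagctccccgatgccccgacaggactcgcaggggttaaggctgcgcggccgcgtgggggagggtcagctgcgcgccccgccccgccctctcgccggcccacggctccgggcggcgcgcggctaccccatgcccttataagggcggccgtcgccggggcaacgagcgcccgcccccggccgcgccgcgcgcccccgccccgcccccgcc

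The upstream Nr5a2 run holds 1 core hexamer at -64 to -59, counted from the start. It also holds 1 TATA box match at -181 to -176, on the strand opposite to the gene. Nr0b2 has a TATA box at -28 to -23, and the downstream Nr5a2 run and the Nr2f6 run have neither motif. Of the other starts in the RefSeq table, the Nr1h4 start has a core hexamer at -214 to -209, and the second Rxra start has 2, at -87 to -82 and -48 to -43. The search covered 300 bases, 250 before to 50 after the start, on both strands. Of all 32851 promoters in that table, 16.3% hold AGGTCA and 13.6% hold TATAAA. The longer sites that contain AGGTCA were not found at any of the 10 starts: TCAAGGTCA, known for NR5A2 (0.423% of all promoters), and the hexamer repeated directly with 1 base between (0.0396%), inverted with 1 base between (0.00913%) or directly with 4 bases between (0.0152%). The Nr2f6 and first Rxra windows were the most GC-rich, at 82.7% and 83.0%, and the upstream Nr5a2 window the least, at 42%.

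Of the 7 receptor genes, 6 were listed in a smaller clique in old than in young, and Nr0b2 in a larger one. Their median size was 57 nodes at the young age against 42 at the old, and the median log2((old + 1)/(young + 1)) was -0.43. Most genes of the networks had the smaller clique in old: 81.5% of the 6257 genes listed at both ages did, with medians of 30 and 16 nodes and a median log2 value of -0.63. The 6 of 7 is near that share. The receptor genes sat in large cliques at both ages, above the median of all genes listed at both ages in every case but Nr0b2 in young and Nr2f6 in old.

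Scaling changes the reading of the smaller sizes. Over all cliques the mean size was 10.5 nodes (young) and 6.75 nodes (old), a shift of -0.64 on the log2 scale. With sizes divided by these means, Nr1h3 and Nr2f6 were smaller in old and the other 5 larger, where 51% of all genes were smaller. Each age is 1 pooled network with no spread between animals, so no test was made and the values describe these 2 networks. Read depth behind the networks is unknown, and a change in all cells or in a share of them cannot be told apart.

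**Figure D1:**
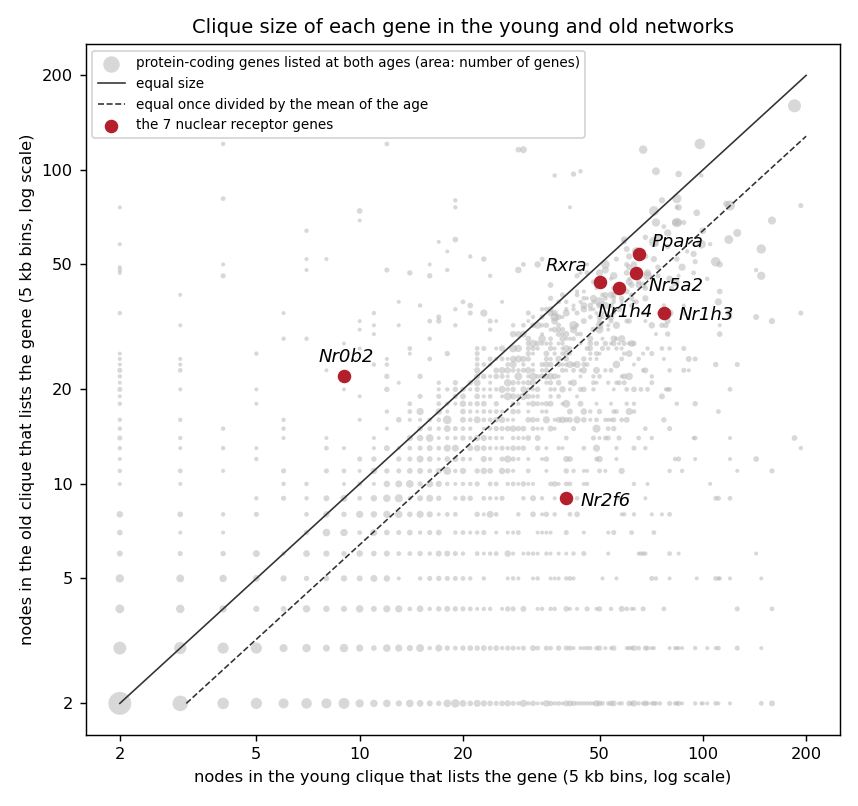
Clique size of genes in the young (x axis) and old (y axis) networks, in nodes of 5 kb on log scales. Grey circles are the 6257 protein-coding genes listed at both ages, with area for the number of genes, and red points are the 7 receptor genes. Rxra, Ppara, Nr1h4 and Nr5a2 lie between the line of equal size and the dashed line of equal size relative to the mean, Nr1h3 and Nr2f6 lie below both, and Nr0b2 lies above both.

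Rxra, the shared partner, had the most similar cliques at the 2 ages among the 7. The gene lies on chromosome 2 from 27676445 to 27763319, plus strand. Its young clique had 50 nodes and its old clique 44, and all 44 old nodes were among the young 50, giving a Jaccard index (shared nodes over nodes in either clique) of 0.88. Among the 1459 genes listed at both ages whose young clique had 50 to 99 nodes the median index was 0.47, and Rxra was at percentile 99.97. Only 183 young cliques had that size, and genes of 1 clique often share an index. The genes are therefore not separate units, and gene-rich cliques weigh more, in this and every other percentile of a size class. Of the young bins 90.0% were nodes of the old network (45 of 50, 95% Wilson interval 78.6 to 95.7), against 67.2% of all young nodes in cliques of that size. Such intervals cover counting error alone and treat neighbouring bins as independent, which they are not. The 67.2%, like the shares given for other sizes, is over all young cliques of the size, with or without a listed gene. The receptor genes were taken as listed at both ages, so their cliques and those of the size class are not chosen alike.

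The Rxra clique is mostly the gene and the block before it. In old it covered 93.6% of its 235 kb span, in 3 runs of adjacent bins, the longest of 115 kb. All 20 bins at the gene, taken as its span with 2500 bp on each side, were nodes at both ages. The young clique reached 210 kb upstream and 295 kb downstream of the first start, measured to bin centres, and the outermost bin at each end was not in the old clique. The 6 young bins outside the old clique were each a single bin, none adjacent to another. Of those bins 1 was in an old clique of 47 nodes that lists Brd3 and Vav2 among others (both named after their values were seen), and 5 were in no old node. The gene column named the same 2 companions at both ages, Gm13421 and Gm25541, a long noncoding RNA and a small nuclear RNA gene in the RefSeq table.

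Ppara had the next most similar cliques, with 1 upstream block that was detached in old. The gene lies on chromosome 15 from 85734910 to 85806851, plus strand, and its young and old cliques had 65 and 54 nodes, of which 53 were shared (Jaccard 0.80, percentile 98.8 in the same size class). Around the gene the 2 networks were nearly the same, with an unbroken shared run of 135 kb, and 15 of 16 bins at the gene were nodes at both ages. The young clique extended 413 kb upstream and the old one 138 kb.

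The distal upstream bins of the young Ppara clique formed separate sets in old. Of these, 6 made up an old clique of 6 nodes from 85335001 to 85380000 that lists Atxn10 and Gm23517, and 1 was in a clique of 2 nodes with no gene. In all, 92.3% of the young bins (60 of 65, 83.2 to 96.7) were old nodes, against 67.2% in the size class. Cdpf1, Pkdrej, Ttc38 and Gtse1, the nearest protein-coding companions, were listed with Ppara at both ages, as were the let-7 microRNA genes Mirlet7b and Mirlet7c-2. Trmu, which encodes a mitochondrial tRNA-modifying enzyme, was listed with Ppara in young and in no clique in old.

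**Figure D2:**
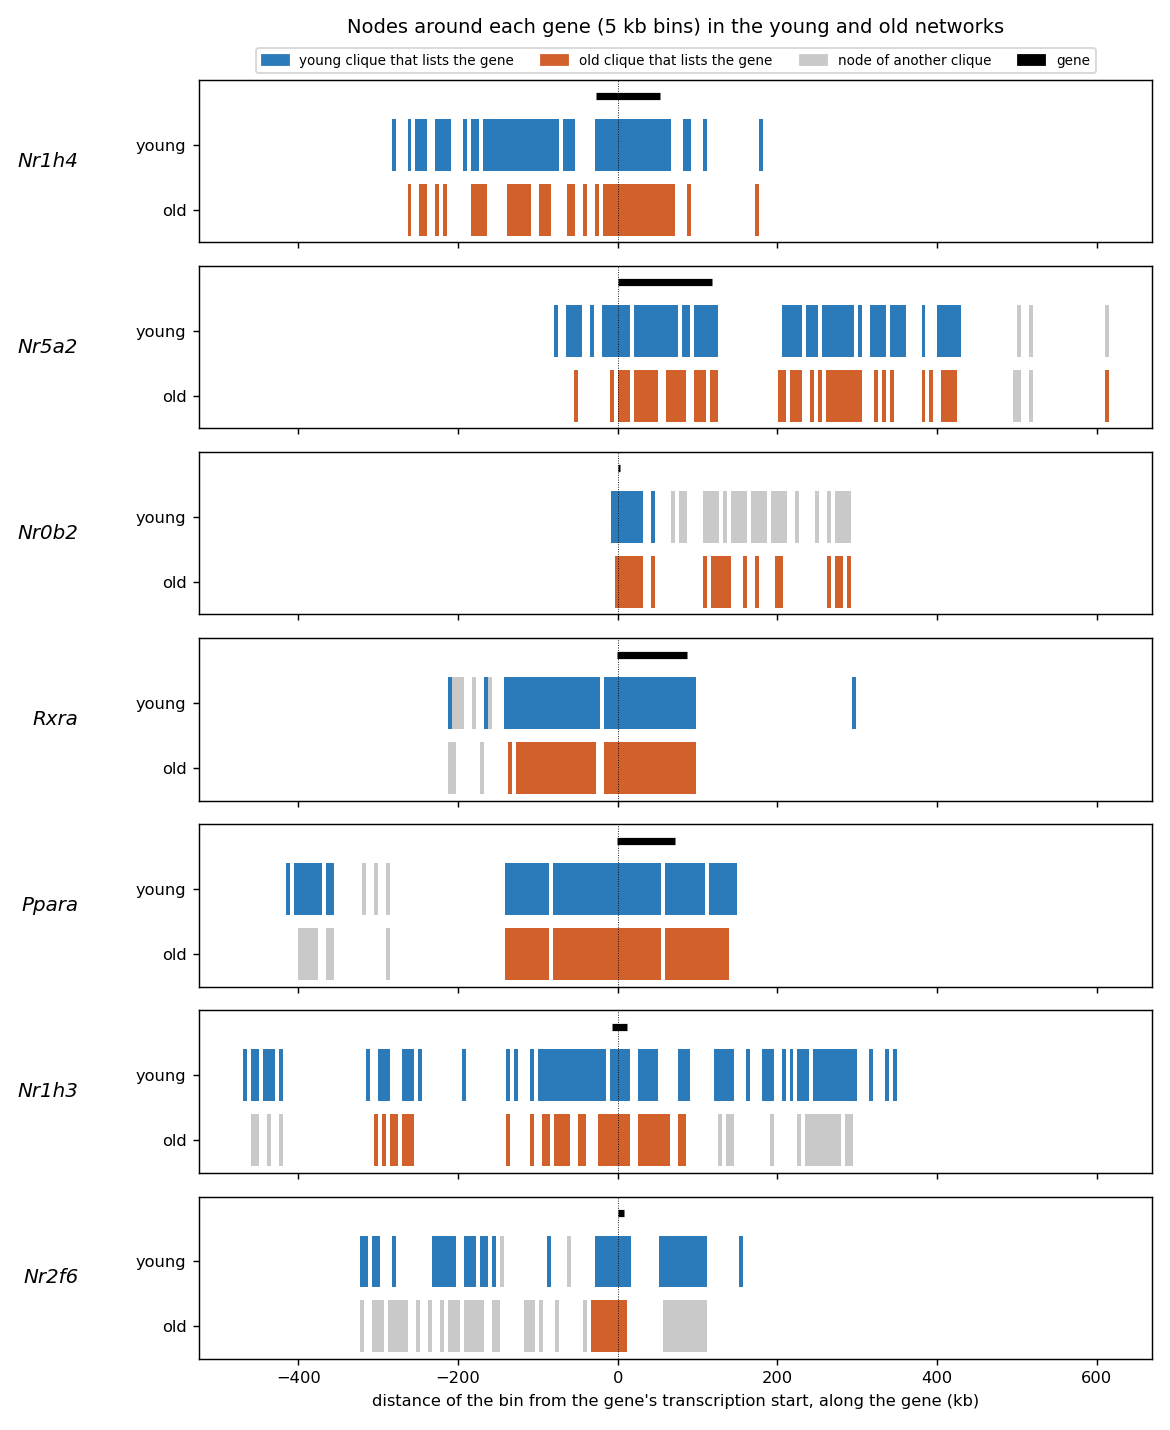
Nodes (5 kb bins) around each gene in the young and old networks, by distance from the transcription start in kb along the gene. Blue and orange bins belong to the clique that lists the gene in young and old, grey bins to another clique, and the black bar is the gene. For Nr1h4 the start drawn is the one in the RefSeq table, which lies inside the gene span, and for genes with 2 starts it is the first in that table. Rxra and Ppara kept a near-continuous block, the old Nr0b2 clique has bins up to 289 kb downstream, and the old Nr2f6 clique is 1 block of 45 kb.

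The FXR gene Nr1h4 and the LRH-1 gene Nr5a2 each had the remaining bins in a single old clique. Nr1h4 lies on chromosome 10 from 89454234 to 89533645, minus strand, in a young clique of 57 nodes and an old one of 42. Of the young bins 38 (66.7%, 53.7 to 77.5) were old nodes, all of them in the old Nr1h4 clique, and 19 were in no old node. That share is close to the 67.2% of all young nodes in cliques of 50 to 99 nodes. The span hardly differed, at 465 kb and 440 kb, while the share of it in nodes was 61.3% in young and 47.7% in old. The gene column was the same at both ages, and Gas2l3, Slc17a8, Scyl2, Actr6 and Uhrf1bp1l therefore have the sizes of Nr1h4 in both networks. Slc17a8 encodes a vesicular glutamate transporter and Actr6 a chromatin remodelling subunit.

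Nr5a2 lies on chromosome 1 from 136842562 to 136960448, minus strand, in cliques of 64 and 47 nodes. Here 41 young bins (64.1%, 51.8 to 74.7) were old nodes, again all in 1 old clique, and 23 were absent, against the same 67.2%. The old clique reached 613 kb downstream through a bin that in young belonged to a clique of 2 nodes listing Camsap2, a microtubule-binding protein gene, and its span was 670 kb against 510 kb. Zfp281, which encodes a zinc finger transcription factor, was the protein-coding gene listed with Nr5a2 at both ages. The Jaccard indices of Nr1h4 and Nr5a2 were 0.62 and 0.59, at percentiles 82.5 and 68.5 of their size class.

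The 2 starts of Nr5a2 differed. The bin of the upstream start, from 136960001 to 136965000, was a node in young and not in old. The bin of the downstream start, from 136950001 to 136955000, was a node at both ages. The bins on either side of each were nodes at both ages, so the difference at the upstream start is 1 bin wide. The other 8 starts of the receptor genes were in nodes of the listing clique at both ages, which makes 6 of 7 genes with every start in a node in both networks. That share was 88.7% over the 5019 genes listed at both ages with a start in the table.

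The SHP gene Nr0b2 was the 1 receptor gene with a larger clique in old. It is a short gene, on chromosome 4 from 133553376 to 133556686, plus strand, with a young clique of 9 nodes and an old one of 22, 2.44-fold more. Across all genes 4.28% had a clique at least 2-fold larger in old. The log2 value was 1.20, and 1.93 after scaling to the mean clique size. Of its 9 young nodes 8 were in the old clique (88.9%, 56.5 to 98.0). Over all young cliques of 3 to 9 nodes, with or without a gene listed in old, 38.0% of nodes were kept, so these shares are not of like cliques. The other nodes of the old Nr0b2 clique came from the neighbouring chromatin. Of them, 12 belonged in young to a separate clique of 29 nodes from 133630001 to 133915000, and 2 were not young nodes.

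That neighbouring young clique listed Arid1a, a SWI/SNF chromatin remodelling subunit gene, with Pigv and Rps6ka1 among others (Rps6ka1 named after its values were seen). In old, 12 of its 29 bins were nodes, all in the Nr0b2 clique, and 17 were absent. Arid1a and Pigv were thus listed with Nr0b2 in old and in a different clique in young. Gpatch3 and Gpn2 were listed with Nr0b2 at both ages, and Nudc, a nuclear migration gene on its other side, was listed with it in young and in no clique in old. The old clique covered 37.3% of 295 kb and the young one 81.8% of 55 kb, so the old set was longer and sparser. The 20 old bins outside the gene all lie downstream of it, and both bins at the gene were nodes at both ages.

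The LXR-alpha gene Nr1h3 and the orphan receptor gene Nr2f6 had the largest reductions in clique size, and the bins of both young cliques lay in several old cliques. They were the 2 receptor genes with a clique at least 2-fold smaller in old, which 38.4% of all genes had. After scaling to the mean clique size the log2 value of Nr1h3 was -0.49 in place of -1.12, under 2-fold, and that of Nr2f6 was -1.51 in place of -2.04. Nr1h3 lies on chromosome 2 from 91184061 to 91202829, minus strand, in cliques of 77 and 35 nodes, 2.20-fold fewer. Of the 77 young bins 28 were in the old Nr1h3 clique, 19 in 2 other old cliques and 30 in no old node, and the share that were old nodes was 61.0% (49.9 to 71.2), against 67.2% in cliques of 50 to 99 nodes. The Jaccard index was 0.33, at percentile 31.2 of that size class. From end to end the young clique spanned 820 kb and the old one 390 kb.

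Of the 14 names listed with Nr1h3 in young alone, 9 were in another old clique and 5 in none. An old clique of 16 nodes from 90900001 to 91070000 held 15 of the young bins and listed Slc39a13, Psmc3, Celf1, Kbtbd4 and Ptpmt1. Psmc3 encodes a proteasome ATPase, Celf1 an RNA-binding splicing regulator and Slc39a13 a zinc transporter. A clique of 4 nodes at the other end listed Zfp408 and Arhgap1. Companions kept at both ages were Acp2, which overlaps Nr1h3, and Ddb2, Mybpc3, Pacsin3 and Arfgap2, all in cliques of 77 and 35 nodes. Acp2 encodes a lysosomal acid phosphatase and Ddb2 a DNA damage recognition protein. At the gene itself 5 of 6 bins were nodes in young and all 6 in old. Kbtbd4, Ptpmt1, Zfp408 and Arhgap1 were named after their values were seen.

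Nr2f6, on chromosome 8 from 71374118 to 71381967, minus strand, had the largest reduction. The young clique had 40 nodes and the old one 9, 4.44-fold fewer, with a Jaccard index of 0.20 (percentile 18.0 among genes in young cliques of 30 to 49 nodes, median 0.47). The bins were mostly still nodes: 31 of 40 (77.5%, 62.5 to 87.7) were in the old network. Of all young nodes in cliques of that size 63.6% were, a value inside the interval. They lay in 6 old cliques, of which the one listing Nr2f6 held 8. The old clique was 1 unbroken run of 45 kb with Ocel1, Ushbp1, Babam1 and Ankle1, all listed with Nr2f6 at both ages.

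On the downstream side of Nr2f6, 11 young bins were an old clique of 11 nodes that lists Haus8 and the unconventional myosin gene Myo9b. On the upstream side, 8 were in an old clique of 14 nodes that lists Slc27a1, a fatty acid transport protein gene, with Nxnl1, Pgls and Tmem221. The remaining 4 were in cliques of 4, 3 and 2 nodes. Use1, Dda1 and Mrpl34 were listed with Nr2f6 in young and in no clique in old. Slc27a1, Nxnl1, Pgls and Tmem221 were named after their values were seen.

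**Figure D3:**
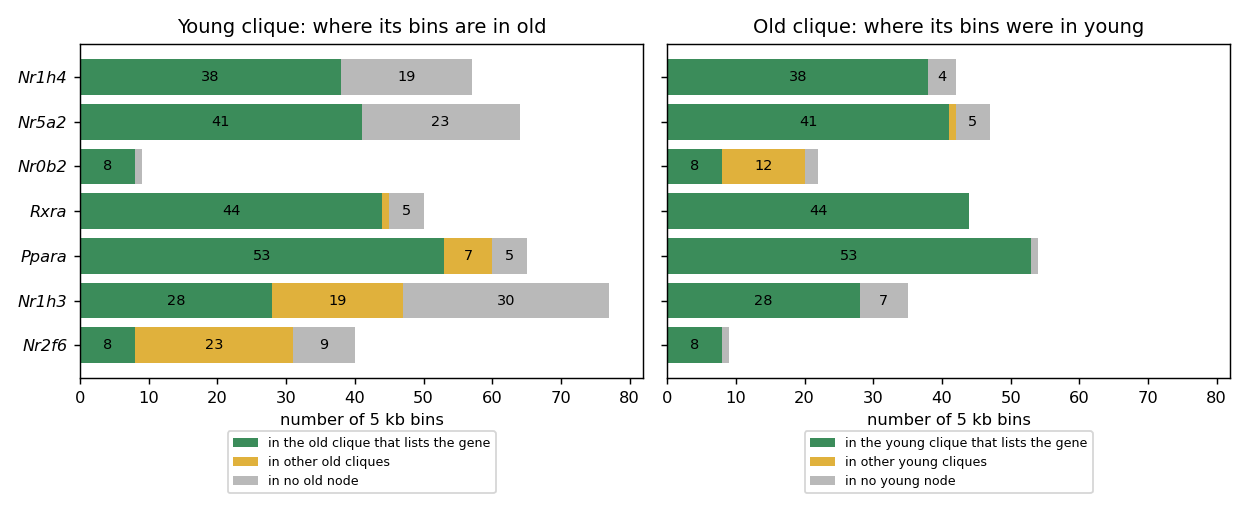
Left, the number of 5 kb bins of each young clique that in old are in the clique listing the same gene (green), in other cliques (yellow) or in no node (grey). Right, the same for the bins of each old clique in the young network. Nr1h4 and Nr5a2 have 19 and 23 absent bins and none in other cliques, Nr2f6 has 23 bins in other cliques, and the old Nr0b2 clique holds 12 bins of another young clique.

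Over the 7 young cliques together, 270 of 362 bins (74.6%, 69.9 to 78.8) were nodes of the old network, 220 in the clique that lists the same receptor gene and 50 in others. From the old side 233 of 253 bins (92.1%, 88.1 to 94.8) were young nodes. Over all cliques 55.6% of young nodes were old nodes and 78.5% of old nodes were young nodes, but most cliques are small and the share of young nodes kept was higher in larger ones, from 22.5% in cliques of 2 nodes to 67.2% in those of 50 to 99. The pooled shares are therefore not of like cliques. A Jaccard index of at least 0.5 between the 2 listing cliques was reached by 4 of the 7, Rxra, Ppara, Nr1h4 and Nr5a2, and by 39.4% of all genes. The bins that remained were in 1 old clique for 3 of the 7, Nr1h4, Nr5a2 and Nr0b2, and for 35.6% of all genes. Ordered by index, the genes ran from Rxra (0.88) through Ppara (0.80), Nr1h4 (0.62), Nr5a2 (0.59), Nr0b2 (0.35) and Nr1h3 (0.33) to Nr2f6 (0.20). That order mixes size classes. Nr0b2 was at percentile 53.9 among genes in young cliques of 3 to 9 nodes, where the median index was 0.33. The indices have no spread, so whether neighbours in that order differ was not tested.

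Bins at the receptor genes were nodes in old more often than the distant bins of their cliques. At the genes 78 of 84 young bins (92.9%) were old nodes, and away from them 192 of 278 (69.1%). Over all genes listed at both ages the same shares were 73.6% and 67.0%. All of these genes, the receptor genes included, were taken as listed in old. The promoter rule behind the listing was not given, and a listing may itself need an old node at the gene. The share at the gene is therefore not free of that choice, least of all for genes of few bins. The share at the gene was the higher of the pair for all 7 receptor genes. How many of all genes have the higher share at the gene was not counted, so the 7 are not read as particular in this. For Nr0b2, Nr2f6 and Nr1h3 the share at the gene rests on 2, 3 and 5 young bins, all of them old nodes. Nr5a2 had 5 of the 6 bins at the genes that were not old nodes and Nr1h4 the other one. Away from the gene the share ran from 55% for Nr1h4 to 90.0% for Ppara.

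The 4 long receptor genes were covered by nodes over most of their length. Rxra had nodes in 100% of its bins at both ages, Ppara in 93.8% at both, Nr1h4 in 94.4% in young and 88.9% in old, and Nr5a2 in 88.0% and 72.0%. For the 729 genes of 60 to 130 kb listed at both ages the medians were 50% in young and 33.3% in old. In old these 4 were at percentiles 99.7, 99.04, 97.0 and 85.5 of those genes.

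**Figure D4:**
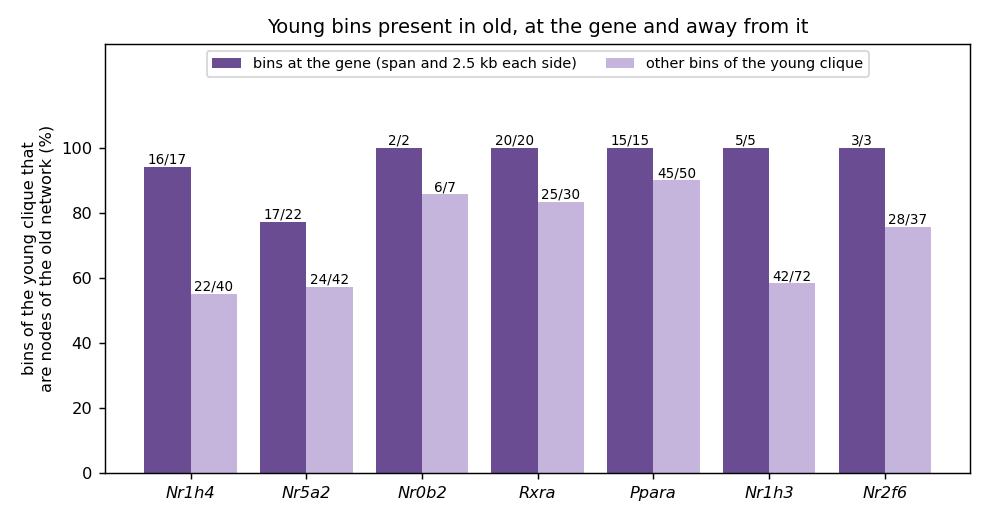
Share of the bins of each young clique that were nodes of the old network, in percent, for bins at the gene (dark) and the other bins of the clique (light), with the number of bins above each bar. The dark bar is the higher for all 7 genes, a count that was not made over all genes. The genes were taken as listed in old, which may itself need an old node at the gene. Nr1h4 has the widest gap among the 4 long genes, 16 of 17 against 22 of 40.

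The company of the receptor genes in the gene column differed between the ages. Of 73 names listed beside them in young, 37 were beside them in old too (50.7%), 20 were in another old clique and 16 in none. In old, 42 names stood beside them, 5 of which had not in young: Camsap2, Gm22132, Pigv, Arid1a and Gm12974. Nr1h4 and Rxra had the same companions at both ages. Nr1h3 had 14 of 22 young companions, and Nr2f6 15 of 19, that were not beside it in old. Over all listed genes the share of companions kept was not counted. Whether the receptor genes kept more or fewer companions than other genes was therefore not tested.

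Among the other 41 genes of the receptor superfamily, 24 were listed in young and 19 in old, all 19 also in young. Of these 19, 14 had the smaller clique in old, and 3 (Nr1h2, Rarb and Hnf4g) the larger, with medians of 25 and 14 nodes and a median log2 value of -0.63, equal to that of all genes. The 14 of 19 is to be read against 81.5% of all genes, and after scaling to the mean clique size there were 11 smaller and 8 larger. The closest relatives of 2 receptor genes had other values. Rxrb, the second RXR gene, was in cliques of 49 and 3 nodes (log2 -3.64), where Rxra had 50 and 44. Nr1h2, encoding LXR-beta, was in cliques of 10 and 74 nodes (log2 2.77), where Nr1h3 had 77 and 35. Nr4a1, an immediate early receptor gene, was at 80 and 20 nodes and the germ cell nuclear factor gene Nr6a1 at 20 and 4. Thra, Hnf4a, Nr3c2 and Nr2f2 (named after their values were seen) were listed in young and not in old, and each had an old node at its gene span, in cliques of 52, 25, 9 and 3 nodes.

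Coregulators carry receptor signals to the transcription machinery. Of 24 coregulator genes, 12 were listed at both ages, with medians of 14 and 4 nodes, and 9 had the smaller clique in old and 3 (Med1, Prmt1 and Tbl1x) the larger, near the 81.5% of all genes that were smaller. By gene span Tbl1x was the smaller in old, with 9 and 5 nodes in place of 2 and 5. After that scaling 8 of the 12 were smaller in old and 4 larger, where 51% of all genes were smaller. Lcor, a ligand-dependent corepressor gene, was in cliques of 23 and 3 nodes, the histone methyltransferase gene Kmt2d in 14 and 2, and the acetyltransferase gene Crebbp in 12 and 2. Med1, the Mediator subunit that contacts nuclear receptors, was in cliques of 7 and 52. The 5 listed in young alone were Ncoa2, Ncoa3, Carm1, Hdac3 and Tbl1xr1 (named after their values were seen). By gene span Ncoa3, Hdac3, Tbl1xr1 and Ncoa2 touched old cliques of 36, 13, 9 and 5 nodes, and Carm1 touched none.

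Of the 5 lists of other receptors, coregulators and targets, 0 genes were listed in a clique with one of the 7 receptor genes at either age. The companions of the receptor genes were only 73 of the 14532 names in the young network and 42 of the 11501 in the old. The 0 is therefore not read as a separation of the lists from the receptor genes. For FXR and SHP targets 14 of 16 were listed at both ages, 12 with the smaller clique in old and 2 (Slc51b and Slc27a5) with the same size, and the medians were 31 and 21.5 nodes. By gene span Slc51b was at 4 and 2 nodes. Cyp7a1, the rate-limiting enzyme of bile acid synthesis, was in cliques of 8 and 3 nodes and Cyp8b1, the sterol 12-alpha-hydroxylase, in 49 and 18. Klb, a coreceptor for the ileal hormone that signals bile acid return, was at 37 and 10 and the conjugate exporter gene Abcc2 at 76 and 32. Fgfr4 was at 16 in young and listed in no old clique, while by position its span touched an old clique of 2 nodes. Against the mean of the age, 10 of the 14 were larger in old and 4 smaller. The 12 of 14 smaller by node number is near the 81.5% of all genes. The 4 of 14 is to be read against 51% of all genes.

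LXR targets had 12 of 15 listed at both ages, with medians of 34 and 26 nodes, 9 smaller in old and 2 larger (Abcg8 and Apoe). Abca1, the cholesterol exporter, was in cliques of 63 and 38 nodes and the phospholipid remodelling gene Lpcat3 in 119 and 60. Abcg8, which forms a sterol transporter with Abcg5, was in cliques of 3 and 7 and Abcg5 in 3 and in no old clique, while by position the Abcg8 span touched cliques of 56 and 7 nodes, the smaller in old, and the Abcg5 span an old clique of 7. For PPAR-alpha targets 17 of 25 were listed at both ages, with medians of 29 and 16 nodes, 14 smaller in old, 2 larger and 1 equal. Fgf21, the fasting hormone gene, was in cliques of 72 and 2 nodes, and Cpt1a, the gate of mitochondrial fatty acid import, of 126 and 24. The liver transcription factor gene Creb3l3 was at 185 and 14, and Pdk4, a kinase that restrains glucose oxidation, at 28 and 6. Larger in old was Cpt2, at 20 and 38 nodes, and Acadm had the same size. Vnn1 was larger by listing (2 and 6 nodes) and smaller by gene span (18 and 6). Acaa2, Acadl, Cyp4a10, Cyp4a14 and Cidec were listed in young alone. By gene span Cidec, Acaa2 and Cyp4a14 touched old cliques of 43, 25 and 3 nodes, and Acadl and Cyp4a10 touched none. Against the mean of the age, 9 of 12 LXR targets and 9 of 17 PPAR-alpha targets were larger in old. Of all genes, 81.5% were smaller in old by node number, which the 9 of 12 and 14 of 17 are near, and 51% against the mean.

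The hepatocyte label was checked on marker genes. Of 8 hepatocyte markers, the young network listed 7 and the old network 6, with Serpina1a in neither and Hnf4a in young alone. Of 36 markers of Kupffer cells, stellate cells, endothelial cells, cholangiocytes and lymphocytes, the young network listed 5 (Lyve1, Pecam1, Fcgr2b, Reln and Spp1) and the old network 1, Lyve1, an endothelial gene in cliques of 25 and 3 nodes. None of the 8 Kupffer cell markers was listed at either age, a cell type that also expresses Nr1h3 and Rxra. By gene span more of the 36 markers touched a clique. Among them were Stab2 (13 and 10 nodes), Cd79a (15 and 8), Pecam1 (88 and 2) and Fcgr2b (10 and 2). Of the Kupffer cell markers, Cd68 touched a clique of 3 nodes in young and Csf1r 1 of 2 nodes in old. The listing is thus the narrower check, and a share of other cells was not tested.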

How the data were processed

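The libraries and ages are given above. Bowtie2, HiC-Pro and the builds mm10 and GRCm38 are named in the submitters' processing notes, without versions. The loop caller, the clique method, the promoter rule and the way libraries were combined were not given in the sources used here. Deposited tables hold, per the file headers, 1 list of nodes and 1 list of cliques for each age. Values are numbers of network nodes, not read counts.

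With Python 3.11.15, nodes of the ages were matched as the same 5 kb bin and each gene took the largest clique naming it. Gene spans (with 2500 bp on each side) and promoters are from RefSeq, GRCm38.p6. The log2 ratios use a pseudocount of 1. Overlap measures were tested on simulated data for 400 cliques, with 0 wrong. Alternatives were gene span, other scalings, a pseudocount of 5, adjacent bins, cliques of at least 3 nodes and protein-coding names. The receptor genes and lists were chosen with earlier results of these data known. Companions named are the up to 5 nearest protein-coding genes listed with a receptor gene at both ages or at 1, and of other lists the up to 4 with the largest log2 values. Genes that give counts of 5 or fewer were named after their values were seen. A few genes of the lists are not reported here.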

Additional observations from a re-analysis of the deposited data

How the results depend on the processing

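Clique sizes came out the same by gene span and summed over cliques, and the direction held with a pseudocount of 5, for all 7 genes. Of the other lists, the direction by gene span turned for Tbl1x, Vnn1 and Abcg8. Dividing sizes by the mean of the age turned the median log2 value from -0.43 to 0.20 and left 2 of the 7 smaller in old in place of 6. Nr1h3 moved from -1.12 to -0.49 and Nr0b2 from 1.20 to 1.93. The turned values were 0.20 for Nr1h4, 0.20 for Nr5a2, 0.46 for Rxra and 0.38 for Ppara. As a difference in percentile among listed genes (old minus young) the median was 5.18, with 5.18 for Nr1h4, 3.74 for Nr5a2, 10.9 for Rxra and 6.48 for Ppara, and again 2 were smaller. Requiring a 2-fold fall also left 2. Nr1h3 and Nr2f6 were smaller and Nr0b2 larger in old in each of these. Counting adjacent bins raised the share of young bins present in old from 74.6% to 91.4%, of old bins present in young from 92.1% to 98.0%, and of young bins in the old listing clique from 60.8% to 72.9%. Old cliques of at least 3 nodes gave 74.0%, and protein-coding names alone gave 44.0% of companions kept against 50.7%. No paired analysis was possible because each age is 1 pooled network with no replicate columns, and no replicate could be left out. Depth per network is unknown.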

Other observations

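The receptor gene loci differ in how many genes their young cliques name, from 0.60 names per 10 nodes for Rxra, 1.23 for Nr1h4, 1.56 for Nr5a2 and 1.85 for Ppara to 2.99 for Nr1h3, 5.00 for Nr2f6 and 5.56 for Nr0b2. The 4 with the fewest names per node are the 4 with a Jaccard index of at least 0.5 between the young and old listing cliques. Over all young cliques of 30 to 99 nodes, a range chosen after these values were seen, the best index with any old clique was at least 0.5 for 137 of 249 (55%) with fewer than 2 names per 10 nodes, 103 of 201 (51.2%) with 2 to under 4, and 32 of 79 (40.5%) with 4 or more. The median best index was 0.52, 0.50 and 0.47, and the median number of old cliques holding the bins was 2, 2 and 3. The share of bins still present ran the other way, with medians of 65.0%, 67.3% and 68.6%. That range leaves out Nr0b2, whose young clique had 9 nodes, and the best index is another measure than the index between listing cliques. The index of Nr0b2 is between cliques of 9 and 22 nodes that shared 8. Cliques are not independent units, and no test was made.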
